A study of Mus musculus with 13 samples.

Results

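The genes described here are 7 nuclear factors that act when a thymocyte chooses between the CD4 and the CD8 lineage, namely Zbtb7b, Runx3, Gata3, Tox, Tox2, Satb1 and Patz1. They were taken by symbol from the gene list of the series, in which all 7 were found among 57010 genes. The study isolated thymi from 2-month-old female C57BL/6N mice and profiled single cells by split-pool barcoding, in which fixed cells receive their barcodes over rounds of pooling. In the first experiment (Parse WT kit) 4 thymic samples, the separated lobes of 2 mice, were run beside 16 other samples, and in the repeat (Parse Mini kit) 4 further thymic samples were the lobes of 2 other mice. The labels of the Parse WT libraries name thymus and spleen, control and chronic stress, but give no tissue or treatment for a single one of the 16 other samples, so these are described by their range and median and enter no test. The Mini libraries are labelled as thymus under control treatment. The 8 thymic samples are thus 4 animals, and lobes of 1 mouse are not separate animals. The p-values therefore measure how differences between groups of cells vary over tissue samples, not over animals.

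During development, thymocytes that carry both coreceptors, Cd4 and Cd8, are tested for the fit of their receptor and then keep 1 of the coreceptors. Zbtb7b (also called ThPOK) is required for the CD4 fate and represses genes of the CD8 programme. Runx3 is the factor of the CD8 fate, and it silences Cd4 and Zbtb7b. Gata3 and Tox act upstream of Zbtb7b in positively selected cells, and both are needed for CD4 cells to form. Tox2 is a relative of Tox that is also known from follicular helper T cells. Satb1 is a chromatin organiser that is needed for the proper expression of the lineage genes, and Patz1 (also called MAZR) represses Cd8 and Zbtb7b.

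Because the members include a factor and its known repressor, the windows upstream of their annotated starts were read for the core letters of Runx sites, TGTGGT, and of GATA sites, GATAA, on both strands. RefSeq (GRCm38.p6) gave 17 windows of 250 bases for 6 of the 7 members, and Tox had no entry. The Runx letters stood in 2 of the 17 windows, against 14.0% of 32851 windows of all genes, and the GATA letters in 0 of 17, against 22.6%. The first sequence lies upstream of the inner start of Zbtb7b at chr3:89387672-89387921 (minus strand). The second lies upstream of the outer start of Runx3 at chr4:135120395-135120644 (plus strand). Both are printed 5′ to 3′ with the Runx letters in capitals, because they are the windows of the Runx factor itself and of the gene it represses in which those letters occur.
Zbtb7b: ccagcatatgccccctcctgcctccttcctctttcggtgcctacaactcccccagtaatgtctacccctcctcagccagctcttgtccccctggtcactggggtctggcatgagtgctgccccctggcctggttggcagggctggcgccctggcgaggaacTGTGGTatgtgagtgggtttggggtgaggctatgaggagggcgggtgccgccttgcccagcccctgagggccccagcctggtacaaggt
Runx3: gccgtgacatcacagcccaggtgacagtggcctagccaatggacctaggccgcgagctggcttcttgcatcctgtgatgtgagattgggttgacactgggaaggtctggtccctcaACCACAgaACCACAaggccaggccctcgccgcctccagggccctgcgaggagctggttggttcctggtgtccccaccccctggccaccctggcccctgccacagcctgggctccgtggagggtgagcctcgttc
In the Zbtb7b window the letters begin 89 bases before the start, and in the Runx3 window they occur as the reverse complement, ACCACA, at 134 and 126 bases before it. A match of letters is a description of the sequence and does not show binding.

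In GENCODE coordinates of GRCm38, Zbtb7b lies at chr3:89377644-89394776 and Runx3 at chr4:135120652-135177990. Tox, at chr4:6686353-6991557, spans 305.2 kb, and Zbtb7b spans 17.1 kb. Tox2 lies at chr2:163203125-163324170, Gata3 at chr2:9857078-9890034, Satb1 at chr17:51736187-51833290 and Patz1 at chr11:3288874-3309083. An annotated gene on the opposite strand overlaps each member other than Tox2 (Gm15417 at Zbtb7b, Gm16224 at Runx3, Gm11802 at Tox), and the sources used here do not say if reads were counted by strand. Levels are therefore compared between cells for 1 gene and never between genes.

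Levels are given as CPM, the unique molecular identifiers (UMIs, 1 per captured transcript) of a gene for every 1000000 UMIs outside 3 ribosomal RNA genes. Cells were assigned to gates by the UMIs of other genes, none of them a member. DN-like cells had Il2ra and an early gene with neither coreceptor. DP-P-like cells were CD8 positive and carried cell cycle genes, and DP-R-like cells had both coreceptors and a recombinase gene, Rag1 or Rag2. DP-S-like cells had both coreceptors, no recombinase UMI and at least 3 UMIs of the selection genes Cd69, Itm2a, Cd5, Nr4a1, Egr2 and Id3. SP-CD4-like and SP-CD8-like cells had 1 coreceptor only, no recombinase UMI and at least 2 UMIs of maturity genes such as Ccr7 and Il7r, and were called mature where a late gene such as S1pr1 or Klf2 was seen. The 8 thymic samples held 45248 T lineage cells, of which 381 were DN-like, 6410 DP-P-like, 10492 DP-R-like, 179 DP-S-like, 1181 SP-CD4-like and 915 SP-CD8-like, while 25690 met no gate.

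The thymic samples held 4178 to 15077 cells each and the other samples 2109 to 8406. Recombinase UMIs were found in 71.2% to 78.4% of the cells of the 8 thymic samples and in 1.25% to 4.64% of those of the 16 others. The tables of the kits share 460 barcode combinations, which belong to separate experiments. At least 1 UMI of a B cell gene was seen in 19.1% of SP-CD4-like cells of the WT thymic samples, in 1.41% of those of the Mini samples and in 31.2% of those of the other samples, and the shares in SP-CD8-like cells were 15.2%, 1.29% and 28.4%. The part of such free RNA, or of barcodes that hold more than 1 cell, in the values below was not tested. In the gates themselves Cd40lg, a gene of CD4 cells, was higher in the mature SP-CD4-like cells (log2 fold change 2.56) and Itgae, an integrin of CD8 cells, was lower (-4.34).

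Zbtb7b and Runx3 separated the lineages in every thymic sample. In SP-CD4-like cells Zbtb7b stood at 58.8 at the lowest, 102 at the median and 140 CPM at the highest of the 8 samples. In SP-CD8-like cells it stood at 5.75, 16.0002 and 19.9, so the lineages did not overlap. Runx3 had the opposite order, with 39.8, 61.0 and 91.1 CPM in SP-CD4-like cells. In SP-CD8-like cells it reached 281, 416 and 617, and again no sample of 1 lineage fell in the range of the other. Over all cells of the gates Zbtb7b was 7.55 times as abundant in SP-CD4-like cells (95% counting interval 5.30 to 11.1), and the ratio of Runx3 was 0.154 (0.131 to 0.179).

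**Figure D1:**
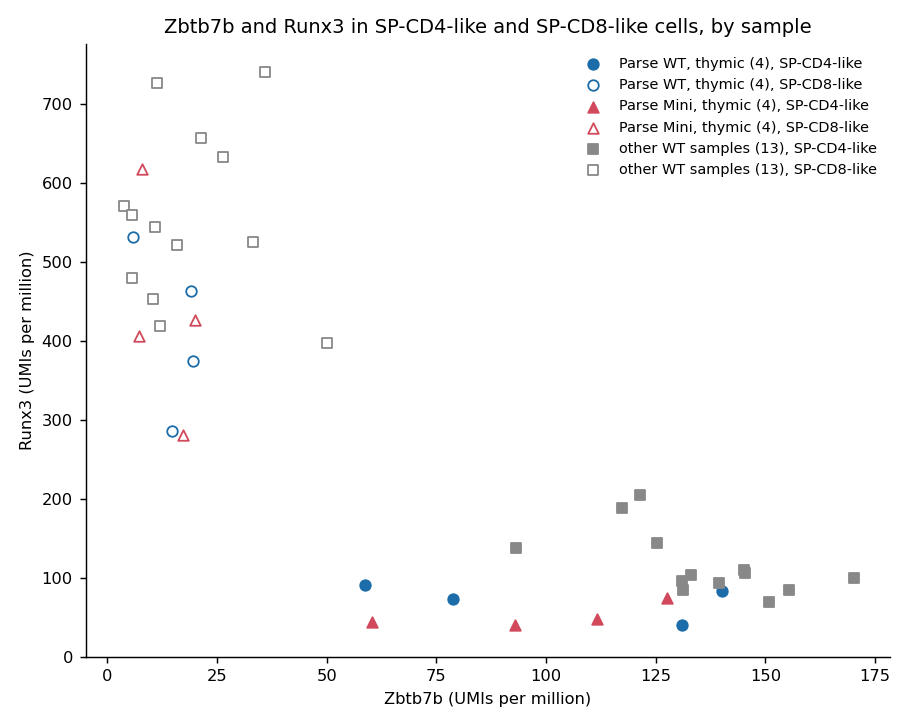
Runx3 against Zbtb7b in CPM, 1 point per sample and lineage (filled, SP-CD4-like; open, SP-CD8-like) for the 4 WT thymic, 4 Mini thymic and 13 other samples with at least 20 cells of both. All filled points lie at the lower right and all open points at the upper left, and the SP-CD8-like cells of the 8 thymic samples sit between 5.75 and 19.9 on the Zbtb7b axis.

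The test between the lineages was made on mature cells, with UMIs summed per sample and gate and fitted by edgeR's quasi-likelihood test with Benjamini-Hochberg adjustment over 6167 genes. All 7 members passed the filter on low counts. Of these, 4 were called at an adjusted p under 0.05, in a comparison in which 6.08% of all genes tested were called (2.85% higher and 3.23% lower). Zbtb7b was higher in SP-CD4-like mature cells by a log2 fold change of 3.07 (SE 0.49, adjusted p = 2.79e-06 by edgeR), and Runx3 was lower, with -2.51 (SE 0.20, adjusted p = 2.59e-17). Satb1 rose by less, 0.47 (SE 0.08, adjusted p = 2.98e-05), and so did Tox, 0.38 (SE 0.11, adjusted p = 0.0299).

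The other 3 members did not pass the test. Gata3 had a log2 fold change of 0.43 (SE 0.20, adjusted p = 0.203 by edgeR), Tox2 of 0.85 (SE 0.69) and Patz1 of 0.13 (SE 0.18). Over immature and mature cells, Gata3 was higher in the SP-CD4-like gate in 7 of 8 samples, with a pooled ratio of 1.92 (1.69 to 2.19). The call of Tox was lost in the Mini samples alone (0.28, adjusted p = 0.477) and when Mini 2-B (0.0651), WT 3 (0.0707) or WT 4 (0.0864) was left out. It was also lost with stricter gates (0.111), after thinning to 1000 UMIs (0.115) and without the sample as a block (0.0764). Satb1 lost its call in the Mini samples alone, at 0.43 with an adjusted p of 0.063. Whether the difference between the lineages itself differed between the kits was tested as an interaction, in which 0 of 7483 genes were called by edgeR (420 had an unadjusted p under 0.05), and the difference between the kits (WT minus Mini) was 0.78 (SE 0.47) for Runx3 and -1.35 (SE 1.38) for Zbtb7b, which had 0.85 (SE 1.70) after thinning.

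**Figure D2:**
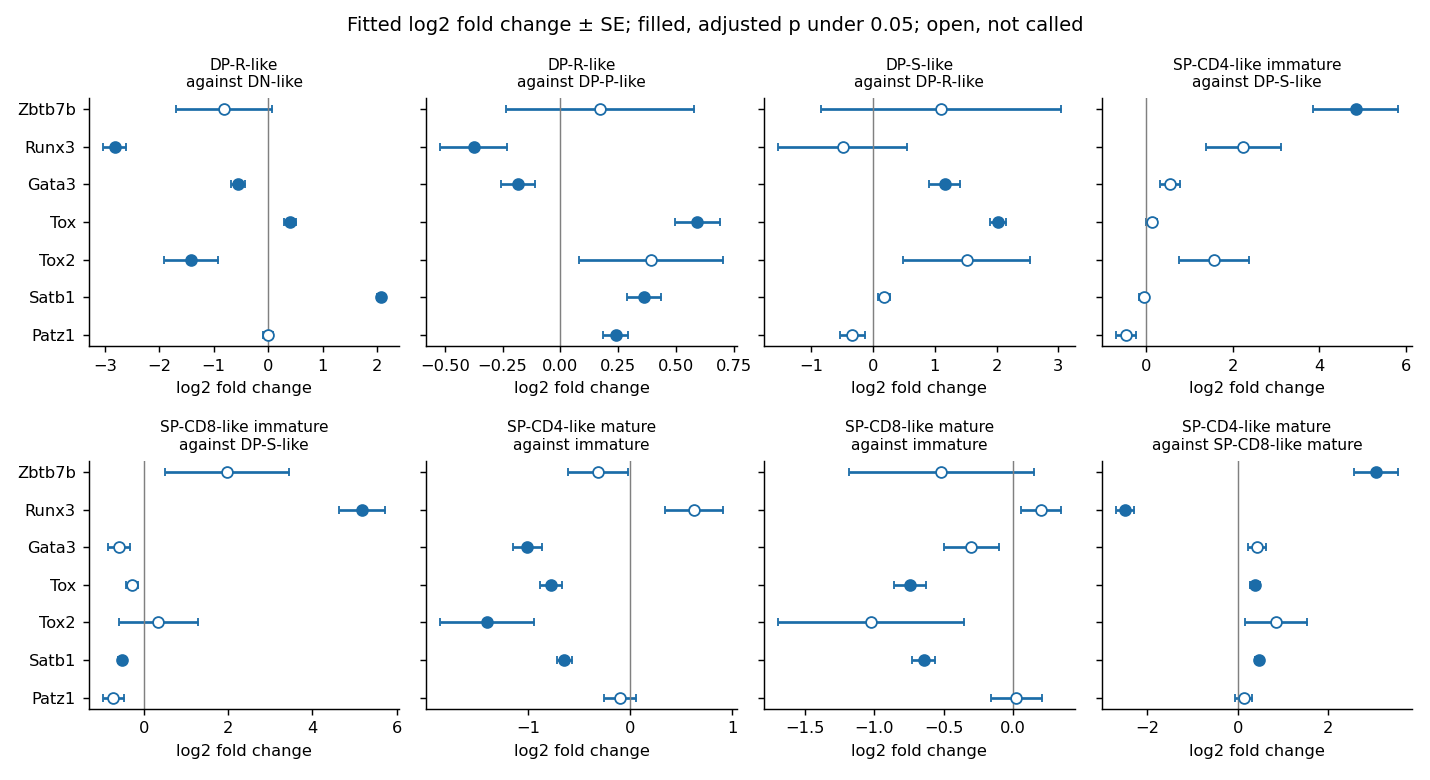
Fitted log2 fold changes of the 7 factors (points) with their SE (bars) in the 8 comparisons of thymic gates, with filled points for an adjusted p under 0.05; the axes differ in range. Zbtb7b and Runx3 lie on opposite sides in the last panel (3.07 and -2.51), and Tox and Gata3 are the filled points of the DP-S-like panel.

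Before the lineages parted, Tox and Gata3 rose, while Zbtb7b and Runx3 had too few UMIs to tell their change. In DP-R-like cells, Tox was at 1046, 1257 and 1426 CPM (lowest, median and highest of 8 samples). Only 4 samples held 20 or more DP-S-like cells, and there Tox was at 3271 in WT 4 and at 5994 to 6685 in the 3 Mini samples. All 4 lay above the highest DP-R-like sample. Gata3, at 89.0, 103 and 119 in DP-R-like cells, was between 180 and 323 in the same 4 samples of DP-S-like cells, without overlap.

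Of the 7 members, 2 were called between DP-S-like and DP-R-like cells, against 5.82% of all genes (2.84% higher and 2.98% lower). Tox had a log2 fold change of 2.02 (SE 0.13, adjusted p = 1.59e-21 by edgeR's quasi-likelihood test) and Gata3 of 1.16 (SE 0.25, adjusted p = 0.000772). Over the alternatives the value of Tox ran from 1.24 to 2.21. In the WT samples alone, in which 1 sum of DP-S-like cells remained, Gata3 had a similar value, 1.06, and was not called. Satb1 was already high in DP-R-like cells, at 6326 to 8406, and had a log2 fold change of 0.19 (SE 0.10), which was not called. Zbtb7b was seen as 1 UMI in all 179 DP-S-like cells (2.34 CPM, interval 0.0592 to 13.0), and Runx3 as 4 UMIs (9.35, 2.55 to 23.9). Their log2 fold changes, 1.10 (SE 1.94) and -0.49 (SE 1.04), were not called. With these SEs a rise cannot be told from no change.

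Zbtb7b was called as higher in immature SP-CD4-like than in DP-S-like cells, and Runx3 in immature SP-CD8-like cells. These single-positive gates differ from the DP-S-like gate in the coreceptor and in the maturity genes. Only the DP-S-like gate also asks for at least 3 UMIs of the selection genes. In immature SP-CD4-like cells Zbtb7b reached 48.7, 110 and 160 CPM over the 8 samples, so that the lowest stood above the highest DP-S-like sample, 11.2. The ratio of the pooled levels was 49.4, with a counting interval of 8.78 to 1961 because of the single UMI in DP-S-like cells. Zbtb7b was the only member called in this comparison (log2 fold change 4.84, SE 0.99, adjusted p = 0.000150 by edgeR), in which 12.0% of genes were called (5.84% higher and 6.18% lower). The single UMI of the DP-S-like cells lay in WT 4, and without that sample the fitted value was 9.58, against sums that were all at 0. In the WT samples alone it was not called (3.11, adjusted p = 0.332). Runx3 and Gata3 were called as well with no filter on low counts, with only the compared gates, with sums of at least 10 cells and with gates without the recombinase limit. Tox and Tox2 were also called with no filter and without the recombinase limit, and Patz1 under the latter only. Runx3 was called besides after thinning and without cells with Foxp3, Zbtb16 or Trdc.

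Runx3 rose on the other branch. It was at 203, 398 and 566 CPM in immature SP-CD8-like cells, against 0 to 17.0 in DP-S-like cells, and the pooled ratio was 42.7 (16.6 to 157). The fit gave a log2 fold change of 5.18 (SE 0.55, adjusted p = 3.23e-11 by edgeR), and Satb1 was lower, with -0.53 (SE 0.10, adjusted p = 4.08e-05), though Satb1 was not called in the WT samples alone (-0.54, adjusted p = 0.0830). These were the 2 members called, against 8.51% of genes (4.31% higher and 4.20% lower). Over the alternatives the value of Runx3 ran from 3.76 to 12.1, with 4 Runx3 UMIs in all DP-S-like cells. Runx3 was also at 28.2 to 74.5 in immature SP-CD4-like cells, where the log2 fold change against DP-S-like cells was 2.25 (SE 0.87) and was not called (adjusted p = 0.0794), though it was without WT 1 (0.0380). Patz1 had -0.73 (SE 0.25, adjusted p = 0.0531) and was called without Mini 1-A (0.0439), Mini 2-B (0.00959) or WT 1 (0.0484), and Tox (-0.28) was called without WT 1 (-0.39, adjusted p = 0.0468). With gates without the recombinase limit Tox turned to the other direction, 0.47 (adjusted p = 2.29e-05 by edgeR). Zbtb7b was at 0 to 27.6 in immature SP-CD8-like cells. Its log2 fold change against DP-S-like cells was 1.97 (SE 1.47, adjusted p = 0.479 by edgeR) and was not called.

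**Figure D3:**
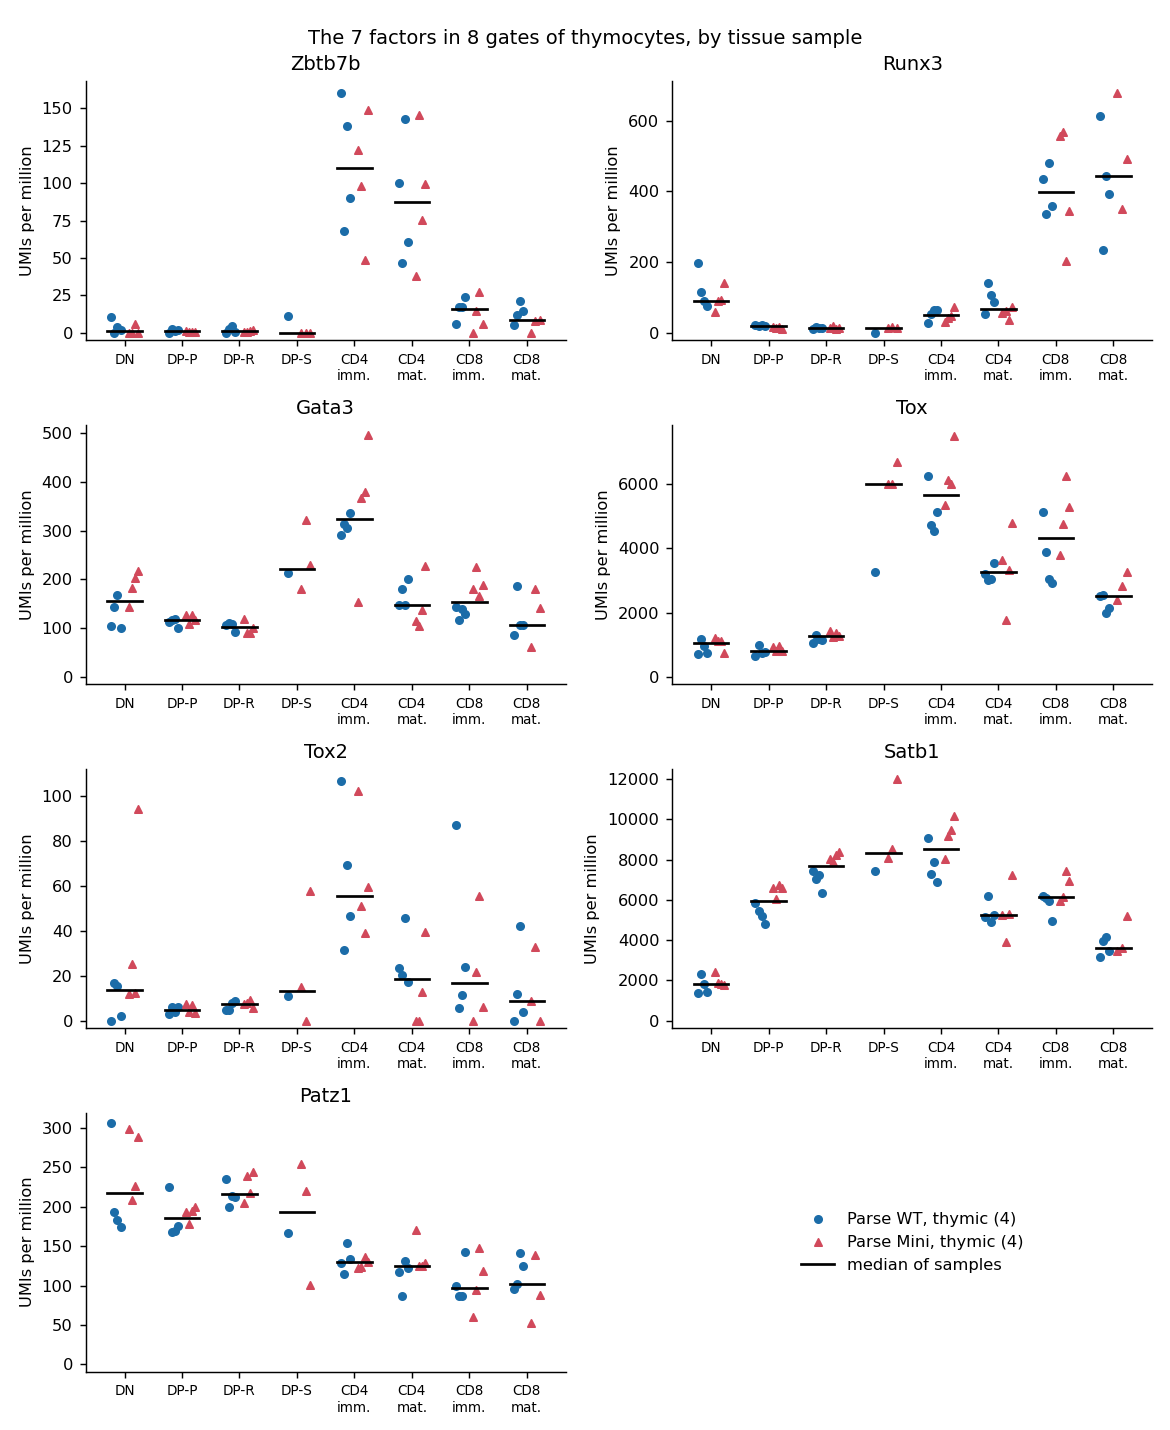
CPM of each of the 7 factors (linear axes that start at 0) in 8 gates of thymocytes, 1 point per tissue sample with at least 20 cells (circles, WT; triangles, Mini) and a line at the median. Zbtb7b stands out in the CD4 gates (medians 110 and 87.2), Runx3 in the CD8 gates (398 and 444), and Tox from the DP-S gate on (median 6005).

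With further maturation Tox and Satb1 fell in both lineages, and Zbtb7b and Runx3 were not called in either. Between mature and immature SP-CD4-like cells 4 of the 7 members were called, all lower, where 10.4% of genes were called, 6.75% higher and 3.68% lower. Gata3 went from a median of 325 (range 153 to 495) to 148 (104 to 228), a log2 fold change of -1.004 (SE 0.14, adjusted p = 1.07e-07 by edgeR). Tox went from 5675 (4533 to 7505) to 3263 (1776 to 4794), or -0.77 (SE 0.11). Satb1 changed by -0.64 (SE 0.08), and Tox2 by -1.40 (SE 0.46, adjusted p = 0.0354), with 31.4 to 107 in immature and 0 to 45.6 in mature cells. For Tox2 the call was lost in the WT samples alone (-1.31, adjusted p = 0.210) and when WT 1, WT 4, Mini 1-A, Mini 1-B or Mini 2-A was left out, and with stricter gates (-1.50, adjusted p = 0.0906).

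In the SP-CD8-like cells 2 members were called, both lower, against 4.20% of genes (2.92% higher and 1.28% lower). Tox was at 4326 (2927 to 6252) in immature and at 2508 (2000 to 3275) in mature cells, a log2 fold change of -0.74 (SE 0.11, adjusted p = 2.29e-06 by edgeR). Satb1 was at 6123 (4935 to 7450) and 3620 (3153 to 5225), with -0.65 (SE 0.08). The mature values leave out Mini 1-A, which held 16 such cells. Zbtb7b differed between mature and immature SP-CD4-like cells by -0.31 (SE 0.30) and Runx3 by 0.63 (SE 0.28, adjusted p = 0.167), neither of them called. In the SP-CD8-like cells Runx3 had 0.20 (SE 0.14) and Gata3 -0.30 (SE 0.20, adjusted p = 0.529), which were not called.

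The earliest cells differed from the DP-R-like cells most in Runx3 and Satb1. DN-like cells had 59.8, 91.7 and 197 CPM of Runx3, all above the range of DP-R-like cells, 10.8 to 18.8. Satb1 was at 1354, 1817 and 2404 in DN-like cells and did not overlap with its DP-R-like range. Of the 7 members 5 were called, in a comparison in which 62.7% of genes were (27.6% higher and 35.1% lower), so that the count is close to that of the whole table. The log2 fold change of Satb1 was 2.08 (SE 0.08), that of Runx3 was -2.82 (SE 0.22), and Tox2 (-1.42), Gata3 (-0.55) and Tox (0.40) were called with smaller values. Gata3 was not called in the WT samples alone (-0.18), with no filter on low counts (-0.26) or without cells with Foxp3, Zbtb16 or Trdc (-0.29), and Tox was not after thinning (0.22, adjusted p = 0.141). Of the Tox2 UMIs in DN-like cells 16 lay in 1 cell of Mini 2-B, a sample without which the call was lost, and in the WT samples alone the value was -0.04.

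Between DP-R-like and cycling DP-P-like cells 5 members were called where 65.9% of genes were (34.3% higher and 31.6% lower), with log2 fold changes between -0.38 (Runx3) and 0.59 (Tox). Runx3 lost its call under 7 of 21 alternatives, among them without Mini 2-A, WT 3 or WT 4, with DESeq2 and in the Mini samples alone (-0.06). Gata3 (-0.19) lost it under 8, among them without Mini 1-B, Mini 2-A or WT 4, with DESeq2, in the WT samples alone (-0.07) and with no filter on low counts (-0.06). Patz1, which represses Cd8 and Zbtb7b, was at 199 to 244 CPM in DP-R-like cells, and was higher there than in DP-P-like cells by 0.24 (SE 0.05). In mature cells it was at 87.1 to 171 in the SP-CD4-like and at 52.1 to 141 in the SP-CD8-like gate, without overlap with the DP-R-like range. No comparison between DP-R-like and single-positive cells was tested.

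The gates left out many cells, so T lineage cells that were neither DN-like nor cycling were also ordered by 5 steps, which were chosen after seeing the data and left out cells that met none of them. At 1000 UMIs per cell, step 1 had a recombinase UMI and no selection or maturity UMI (9420 cells), step 2 had 1 selection UMI (3264) and step 3 at least 2 (1699), both without maturity UMIs. Step 4 had 1 maturity UMI (2258) and step 5 at least 2 (4231), both without recombinase UMIs. Recombinase UMIs were not limited in steps 2 and 3. The coreceptors were not used, so steps 4 and 5 pool cells of both lineages. For Zbtb7b and Runx3, which had opposite levels in the lineages, the later steps are averages over both.

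Tox and Gata3 had reached their level by step 3. The medians of Tox were 1118, 2261, 3741, 4166 and 3872 CPM over the steps, with step 3 above step 1 in 8 of 8 samples. Those of Gata3 were 90.5, 140, 243, 229 and 197, and again step 3 was above step 1 in 8 of 8 samples and above step 5 in 8 of 8. At step 3, Tox stood at 90.3% to 122% and Gata3 at 102% to 140% of its own level at step 5. Tox2 followed at lower counts, from 6.59 to 23.3 at step 3.

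Zbtb7b and Runx3 were also higher at step 3 than at step 1, in 7 and 8 of 8 samples, but stood well below their level at step 5. Zbtb7b had medians of 2.78, 5.597, 9.33, 25.3 and 50.5 CPM, and at step 3 it stood at 18.1% of its level at step 5 (4.90% to 30.1% over the samples). Runx3 had 18.8, 23.9, 31.6, 71.7 and 168, with 21.0% at step 3 (11.1% to 27.9%). In 8 of 8 samples step 5 lay above step 4 and step 4 above step 3 for both genes. These ranges do not overlap with those of Tox or Gata3. Satb1 (7615, 7676, 7724, 7454 and 6363) and Patz1 (213, 196, 215, 172 and 134) were lower at step 5 than at step 3 in 8 of 8 samples.

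**Figure D4:**
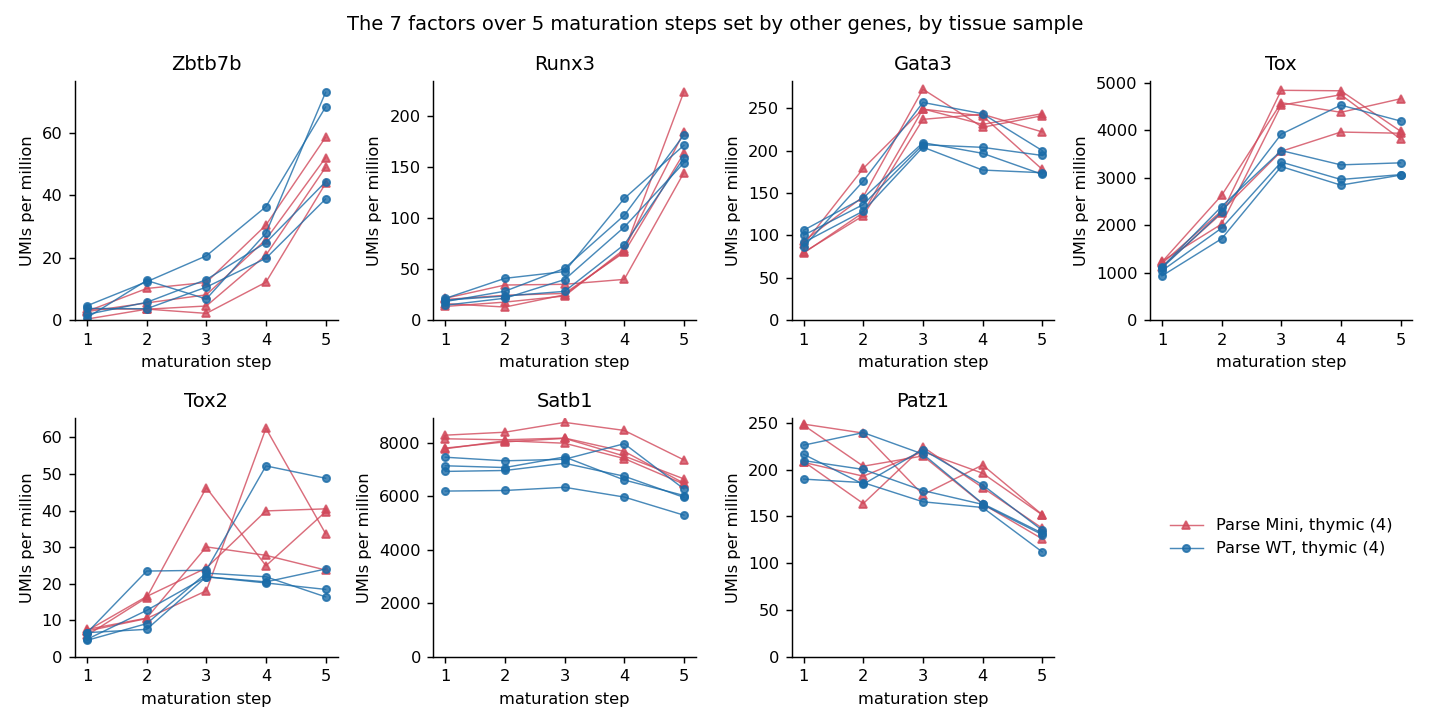
CPM of each factor over the 5 maturation steps set by recombinase, selection and maturity genes, 1 line per thymic sample (circles, WT; triangles, Mini). Tox and Gata3 reach their level at step 3 (medians 3741 and 243), whereas Zbtb7b and Runx3 rise up to step 5 (50.5 and 168).

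To ask whether single cells hold the factors together, every cell was thinned at random to 1000 UMIs outside ribosomal RNA. At this depth Zbtb7b was seen in 96 of 1181 SP-CD4-like cells of the thymus (8.13%, exact interval 6.63% to 9.84%) and in 15 of 915 SP-CD8-like cells (1.64%, 0.920% to 2.69%). In DP-R-like cells, which stand for cells before the choice, it was seen in 0.143%. Runx3 was seen in 24.9% of SP-CD8-like, 6.35% of SP-CD4-like and 1.27% of DP-R-like cells. Without thinning, at median depths of 2284 and 2295 UMIs in SP-CD4-like and SP-CD8-like cells, the shares were 19.5% and 3.17% for Zbtb7b and 11.6% and 41.9% for Runx3. Tox and Satb1 were seen in 88.6% and 96.5% of SP-CD4-like cells, so that for these nearly every cell held a UMI at 1000.

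Across the lineages, cells with both Zbtb7b and Runx3 were fewer than their separate shares would give. In the SP-CD4-like and SP-CD8-like cells as 1 set 8 cells held both, where 16.1 would be found if the genes were unrelated within each sample, a ratio of 0.496 (exact Poisson interval 0.214 to 0.977, for counting error only). Without thinning it was 39 against 65.7, or 0.594 (0.422 to 0.812). These gates were cut by the coreceptors, and the cells of each lineage had to be looked at apart.

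Within a lineage the intervals of the ratio included 1. In the SP-CD4-like cells 8 cells held both against 5.90, a ratio of 1.36 (0.585 to 2.67), and the samples had 0, 1 or 2 such cells each. In the SP-CD8-like cells 0 of 915 cells held both in this draw of 1000 UMIs, against 3.59 cells if unrelated, and the interval of the ratio reached 1.03. Over all draws the expected ratio was 0.535. Without thinning 9 such cells were found against 11.9 (0.757, 0.346 to 1.44), and at 2000 UMIs per cell the ratio was 0.965. Over all 45248 T lineage cells 27 held both, against 23.1, or 1.17 (0.770 to 1.70), and without thinning the ratio was 1.62 (1.47 to 1.80), where cells differ in depth. This set also pools stages over which both genes rose, and such pooling raises the ratio.

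The T cells of the 16 other samples had the same order with more cells. Of 10792 T lineage cells, 2944 were SP-CD4-like and 2862 SP-CD8-like, with median depths of 2482.5 and 2394 UMIs. In 14 samples with at least 20 cells, Zbtb7b was at 58.4, 132 and 170 CPM (lowest, median, highest) in SP-CD4-like and at 0, 11.7 and 50.2 in SP-CD8-like cells. Runx3 was at 69.6, 105 and 205 in the former and at 397, 551 and 810 in the latter. Neither gene overlapped between the lineages, and the direction held in all 13 samples with 20 cells of both. The 14 samples are not all the same for the gates. The 58.4 of Zbtb7b rests on 2 UMIs in the 20 SP-CD4-like cells of CVS_S_5, which had 18 SP-CD8-like cells. In the 13 samples with both gates the lowest was 93.2. How many of all genes lack such overlap was not computed, here or in the thymus.

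In these cells Zbtb7b was seen at 1000 UMIs in 11.5% of SP-CD4-like and 1.19% of SP-CD8-like cells, and Runx3 in 9.38% and 36.8%. Cells with both numbered 41 against 31.5 in SP-CD4-like cells (1.30, 0.934 to 1.77) and 11 against 12.7 in SP-CD8-like cells (0.866, 0.432 to 1.55). Both gates in 1 set held 52 such cells against 85.8, a ratio of 0.606 (0.453 to 0.795). In all T lineage cells, taken without regard to the coreceptors, 103 held both against 148 (0.694, 0.566 to 0.841). That set contains the cells of both gates and still joins the lineages, so it is no separate reading of exclusion.

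**Figure D5:**
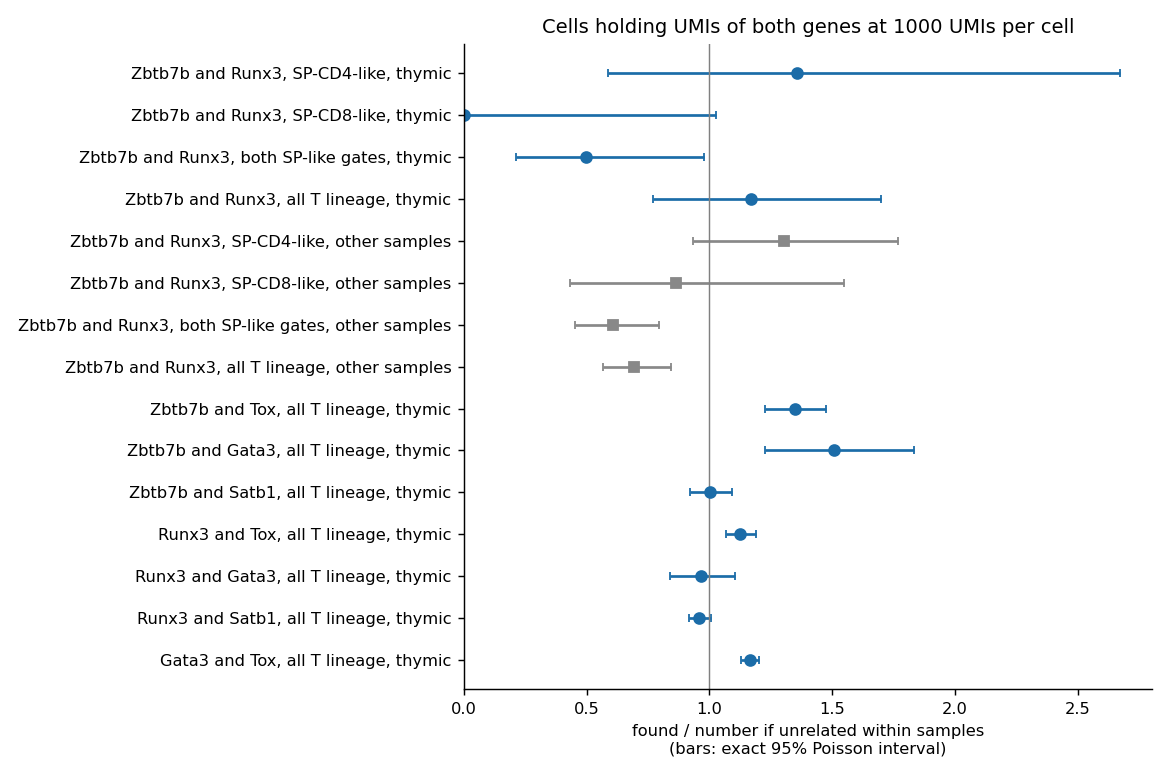
Cells that hold UMIs of both genes at 1000 UMIs per cell, as a ratio to the number expected if the genes were unrelated within each sample (points; bars, exact 95% Poisson interval), for thymic T lineage cells (circles) and the other samples (squares). The ratio of Zbtb7b and Runx3 lies under 1 in the SP-CD4-like and SP-CD8-like cells as 1 set (0.496 thymic, 0.606 other). Its interval spans 1 within each lineage and, with a ratio above 1, over all thymic T lineage cells. In all thymic T lineage cells Zbtb7b with Tox (1.35) and with Gata3 (1.51) lies above 1. The values of these pairs in the other samples, 0.986 and 1.41, are not drawn.

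Over all thymic T lineage cells, the ratios of the upstream factors with Zbtb7b and with Runx3 are set side by side, and their difference was not tested. These ratios pool stages, and Tox, Gata3, Zbtb7b and Runx3 were all higher at step 5 than at step 1. Tox was seen in 459 of the 556 cells with Zbtb7b, against 341 if unrelated (ratio 1.35, 1.23 to 1.48), and Gata3 in 100 against 66.3 (1.51, 1.23 to 1.83). With Runx3, Tox had a ratio of 1.13 (1.07 to 1.19) and Gata3 of 0.965 (0.839 to 1.10). Satb1, which nearly all cells held, had 1.00 and 0.959. In the T lineage cells of the other samples Zbtb7b had a ratio of 0.986 with Tox (0.880 to 1.10) and of 1.41 with Gata3 (1.10 to 1.77). Within the SP-CD4-like gate the ratio with Gata3 was 0.974 for Zbtb7b (0.586 to 1.52) and 0.588 for Runx3 (0.269 to 1.12), and in the SP-CD8-like gate it was 0.741 for Runx3 (0.459 to 1.13). Tox and Satb1 were seen in so many cells of these gates that their ratios could hardly exceed 1, and they are not read here.

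Sorting all thymic T lineage cells by the factors alone gave 4 classes. At 1000 UMIs, 42852 cells (94.7%) held neither Zbtb7b nor Runx3, 529 (1.17%) held Zbtb7b only, 1840 (4.07%) Runx3 only and 27 both. Tox was seen in 82.4% of cells with Zbtb7b only, in 68.8% of those with Runx3 only and in 60.6% of those with neither. Cd40lg was seen in 7.94%, 1.63% and 1.21% of these classes, and Itgae in 0.945%, 12.5% and 1.34%. In the same order, Cd4 was seen in 38.8%, 26.4% and 45.6%, and Cd8a or Cd8b1 in 30.1%, 46.5% and 55.0%. Cd4 without Cd8 was seen in 26.7%, 12.7% and 18.1%, and Cd8 without Cd4 in 18.0%, 32.8% and 27.6%. A recombinase UMI was still seen in 26.8% of the cells with Zbtb7b only and in 35.3% of those with Runx3 only, against 57.3% of those with neither. Of the 27 cells with both, 23 held Tox and 23 a maturity gene, 8 had Cd4 without Cd8 and 6 the reverse. Before thinning, cells with both had a median of 6028.5 UMIs in the WT samples, against 3902.5 with Zbtb7b only and 4487.5 with Runx3 only. In the Mini samples these medians were 3095, 3176 and 3717. Whether barcodes that hold several cells add to this class was not tested.

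In the other samples the classes held 6.19% (Zbtb7b only), 18.3% (Runx3 only) and 0.954% (both) of the cells. Cells with both had Cd4 without Cd8 in 33.0% and Cd8 without Cd4 in 6.80%. This was nearer to the cells with Zbtb7b only (29.2% and 2.84%) than to those with Runx3 only (9.32% and 41.1%), as a description of these shares without a test. Itgae did not have its thymic order there, with 4.34% of cells with Zbtb7b only, 2.89% of those with Runx3 only and 2.82% of those with neither. Cd40lg was seen in 5.24%, 1.77% and 4.19%.

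Away from the first choice, the other members took different levels in the other samples. Tox was at 499, 893 and 1173 CPM in SP-CD4-like and at 174, 392 and 755 in SP-CD8-like cells, all below the thymic ranges, 3920 to 6341 and 2554 to 4455. Satb1 was at 423 to 1612 and 685 to 1699, against 6257 to 8924 and 4233 to 6352 in the thymic samples. Gata3 was at 70.6, 106 and 139 in SP-CD4-like and at 16.6, 43.8 and 90.8 in SP-CD8-like cells, and higher in the former in 12 of 13 samples. The study describes these samples as non-thymic, but the tissue of each is not given. The thymic gates held 747 immature and 434 mature SP-CD4-like cells, and the other samples 890 and 2054. For SP-CD8-like cells these counts were 526 and 389, against 549 and 2313. Tox and Satb1 were lower in mature than in immature thymic cells, so these levels are not matched for maturity. The difference from the thymus was not tested, nor was the part of maturity in it.

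Satb1 and Tox2 had other ratios between the lineages in the 2 sets of samples. Satb1 was higher in SP-CD4-like cells in 8 of 8 thymic samples (pooled ratio 1.44, 1.41 to 1.48), and in 5 of 13 other samples (0.927, 0.901 to 0.953). These 5 are the samples that the cell table names YD_C, with ratios of 1.02 to 1.06 and 1283 to 1612 CPM in SP-CD4-like cells. The other 8 of the 13, all named CVS, had ratios of 0.3005 to 0.949 and 423 to 675 CPM, so the pooled ratio joins samples with different values. A further CVS sample with 20 SP-CD4-like and too few SP-CD8-like cells had 1605 CPM of Satb1. Tox2 was higher in SP-CD4-like cells in 7 of 8 thymic samples, with a pooled ratio of 2.39 (1.71 to 3.38), and in 13 of 13 other samples, where the ratio was 12.8 (9.03 to 18.7). Patz1 had pooled ratios of 1.15 (0.982 to 1.35) and 1.04 (0.914 to 1.18). The change between the sets of samples itself was not tested.

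The Tox2 level of the other samples was highest in cells with follicular helper genes among 3 subsets of SP-CD4-like cells. In the 132 SP-CD4-like cells with at least 2 UMIs of Cxcr5, Pdcd1, Il21 and Bcl6, Tox2 was at 362 CPM (310 to 421, counting interval) and Tox at 2546. In the 2599 SP-CD4-like cells with neither these genes nor Foxp3, Tox2 was at 35.5 (31.3 to 40.2) and Tox at 760. Over 13 samples Tox2 in the latter cells ranged from 4.71 to 185 CPM, and only 1 sample held 20 cells of the former, so the counting intervals do not cover the spread between samples. Zbtb7b was at 102 (75.4 to 136) in the former and at 137 (128 to 146) in the latter. The 224 cells with Foxp3, the factor of regulatory T cells, had Zbtb7b at 151 (124 to 181) and Runx3 at 57.3 (41.5 to 77.2), where the cells with neither marker had Runx3 at 118 (110 to 126).

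Both factors were also measured outside the conventional lineages. The 138 thymic T lineage cells with Zbtb16, the factor of innate-like T cells, and no recombinase UMI had Zbtb7b at 53.2 (35.6 to 76.4) and Runx3 at 152 (121 to 189) CPM. In the 386 such cells of the other samples the levels were 122 (104 to 143) and 183 (160 to 208). Thymic cells with at least 2 UMIs of the gamma-delta genes Trdc and Sox13 and no recombinase UMI, 305 in all, had Runx3 at 119 (103 to 137) and Tox2 at 74.7 (62.0 to 89.2), with Zbtb7b at 9.87 (5.64 to 16.04). Over 8 samples these ranged from 67.3 to 166, 14.3 to 237 and 0 to 26.7 CPM, beyond the counting intervals. These are levels over cells, and the share of single cells with both factors in these subsets was not computed.

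Other genes of CD4 and CD8 lineage choice were read from a list of 44, of which 34 were tested. Between mature SP-CD4-like and SP-CD8-like cells 4 were higher and 2 lower, or 17.6% of those tested, where 6.08% of all genes were called, with a median log2 fold change of 0.10 against -0.03 for all genes. The higher were Cd40lg (2.56), Runx1 (0.63), a relative of Runx3, Ets1 (0.43) and Lef1 (0.39). The lower were Myb (-0.63) and Tcf12 (-0.39). The list includes Id3, a selection gene that sets the DP-S-like gate, so its value in comparisons with that gate is partly fixed by the gate. Between DP-S-like and DP-R-like cells 3 were higher and 1 lower (11.8%, against 5.82% of all genes). Between immature SP-CD4-like and DP-S-like cells 4 were higher and 5 lower (26.5%, against 12.0%). The list's share was 23.5% against 8.51% for immature SP-CD8-like and DP-S-like cells, and 14.7% for mature against immature cells of either lineage (10.4% and 4.20% of all genes). For DP-R-like cells it was 58.8% against DP-P-like and 64.7% against DN-like cells, where 65.9% and 62.7% of all genes were called.

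The genes whose course over the 59 sums of sample and gate was most like that of Zbtb7b, after centring each sample, were Sgms1 (Pearson r 0.86), Cd40lg (0.84), Ifngr2 (0.84) and Mllt3 (0.84). For Runx3 they were Pik3cd (0.87), Dock10 (0.84), Pmepa1 (0.84) and Sema4a (0.83). The sums of 1 sample share its libraries and depth, and these values are a description over 5967 genes.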

How the data were processed

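Single-cell counts were deposited as sparse matrices of UMIs per gene and cell, with a gene list and a table of cells, 1 set for the Parse WT kit (20 tissue samples, 9 sublibraries) and 1 for the Parse Mini kit (4 samples, 2 sublibraries). The authors made these counts with the split-pipe pipeline on the mouse genome mm10 and deposited them without normalization. The 10x libraries are not analysed here.

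Cells with 500 to 25000 UMIs, at most 15% mitochondrial UMIs and at least 1000 UMIs outside 3 ribosomal RNA genes were kept. No doublet caller was run, whereas the study called doublets and removed them. Barcodes that hold several cells were limited only by the UMI ceiling (10000 as an alternative) and by the limits on genes of other cell types. T lineage cells had at least 2 UMIs of T cell genes and under 2 each of B cell, myeloid and NK genes. The thymic samples of the WT table were taken from the sample names of its cell table and checked by their recombinase shares. Gates were set on UMIs before thinning, and 1 gene of the late list is not reported here. Counts were summed per sample and gate, leaving out sums of under 20 cells, which gave 59 sums with 6167 genes after filterByExpr, and were tested with edgeR 4.0.16 (R 4.3.3; TMM, quasi-likelihood F-test, tissue sample as a block, Benjamini-Hochberg). All gates shared 1 estimate of the spread. Scripts used Python 3.11.15, numpy 2.4.6, scipy 1.17.1 and pandas 2.3.3. Counts were simulated and fitted for the mature SP-CD4-like and SP-CD8-like gates alone, over 4792 genes. Of genes changed 1.5-fold 36% were recovered, of those changed 2-fold 66% and of those changed 4-fold 86%. The changed genes were drawn from those above 20 CPM.

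Intervals (95%, exact binomial or Poisson) and the limit of 3 counts behind a share of 0 cover counting error only. The members and lists were chosen with earlier results of these data known. All members were named whatever their values; of the list of 44 genes, up to 6 called genes with the largest change were named, and of the genes most like Zbtb7b or Runx3, 4 each with a mean of at least 20 CPM. Alternatives were DESeq2 1.42.0, RLE scaling, no filter, 1 kit alone, samples left out, no block, stricter gates, thinning and a lower ceiling. Sums of at least 10 cells, gates without the recombinase limit, cells without Foxp3, Zbtb16 or Trdc and the 5 maturation steps were chosen after seeing the data.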

Additional observations from a re-analysis of the deposited data

Results flagged for a closer look

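In the SP-CD4-like cells of the 4 Mini samples, the Tox level of Mini 2-B, 6341 CPM, was far from the other 3 by the test of the gap to the nearest sample over the whole range. In all, 42 groups of 4 samples were looked at, and chance marks about 1 in 20.

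Levels of the lineage factors were also seen in cells that entered no comparison. In the 16 other samples, 26951 cells with B cell genes and too few T cell genes had Zbtb7b at 35.8 CPM (34.5 to 37.1, counting interval) and Runx3 at 67.4 (65.7 to 69.2). In 3398 cells with myeloid genes Zbtb7b was at 125.5 (118 to 133), close to its level in the SP-CD4-like cells of these samples, 136 (128 to 144), and Runx3 was at 69.4 (64.1 to 74.9). Gata3 in the same cells was at 2.12 and 2.66, against 91.4 in SP-CD4-like cells.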

How the results depend on the processing

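Of 25 pairs of member and comparison that were called, 14 were called under every one of the 21 alternatives that gave a value, 11 lost the call under at least 1 and 0 reversed. For immature SP-CD4-like against DP-S-like cells, where 1 was called, 5 were called with no filter on low counts, 0 in the WT samples alone, 3 with only the compared gates fitted, 3 with sums of at least 10 cells, 6 with gates without the recombinase limit and 2 without cells with Foxp3, Zbtb16 or Trdc. For immature SP-CD8-like against DP-S-like cells 1 member was called in the WT samples alone, and 5 with gates without the recombinase limit, where Tox turned to 0.47 (adjusted p 2.29e-05 by edgeR) from -0.28, which was not called. For DP-S-like against DP-R-like cells 1 was called in the WT samples alone. Between the mature lineages 2 were called in the Mini samples alone and 2 after thinning to 1000 UMIs, when 5 of the 7 could be tested. DP-R-like against DP-P-like cells had 3 with DESeq2, and DP-R-like against DN-like cells 3 in the WT samples alone, 3 after thinning and 3 without cells with Foxp3, Zbtb16 or Trdc. Stricter gates left no sum of DP-S-like cells. The kit interaction had 0 calls under both alternatives run, with 410 (RLE) and 227 of 4583 genes (thinned) at an unadjusted p under 0.05. The causes were not tested. The counts of members here and with samples left out stand without the share of all genes called under each alternative. They are therefore not read as a result about the members.

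Leaving out each sample in turn gave 3 to 4 members between the mature lineages, 2 to 2 for DP-S-like against DP-R-like, 1 to 2 and 2 to 4 for immature SP-CD4-like and SP-CD8-like against DP-S-like (2 and 4 members without WT 1), 3 to 4 and 2 to 2 for mature against immature cells of these lineages, 3 to 5 for DP-R-like against DP-P-like and 4 to 5 against DN-like. The ratio of cells with Zbtb7b and Runx3 ranged from 1.16 to 1.61 in SP-CD4-like, was 0 in SP-CD8-like, where each sample had 0 such cells and nothing else could result, and ranged from 1.08 to 1.33 in all T lineage cells and from 0.572 to 0.631 in the other samples. In SP-CD8-like cells it was 0.965 at 2000 and 0.700 at 3000 UMIs per cell, 0.757 without thinning, 0.716 at 1000 of all UMIs and 0.535 as the value expected over all draws.

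Sublibrary numbers pair no samples, and gates were paired within each tissue sample by the block. Without the replicate block, with the kit as the term, 3 members were called between the mature lineages, Tox being lost (0.38, adjusted p 0.0764 by edgeR). Depth limits the rare transcripts: a share of Zbtb7b under 1.68% could not be told from 0 in DP-S-like cells.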

Other observations

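In 280 cells of the other samples with NK genes and too few T cell genes, Runx3 was at 305.5 CPM (263 to 353, counting interval), Tox at 934 and Zbtb7b at 60.4 (42.6 to 83.3). Of the 62 cells with gamma-delta genes in these samples, Runx3 was at 363 (287 to 451) and Zbtb7b at 49.85 (24.9 to 89.2), against 119 and 9.87 in the thymic ones.

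Among the SP-CD4-like cells of the other samples, Tox2 was seen less often with Runx3 than unrelated genes would be, in 3 cells against 9.10 (ratio 0.330, 0.068 to 0.964), and less often with Satb1, in 23 against 50.03 (0.460, 0.291 to 0.690). It was seen more often with Tox, in 59 against 41.8 (1.41, 1.08 to 1.82). These pairs were picked from all pairs of members in several gates and sets of samples, without adjustment for their number. The gate also pools subsets. In cells with follicular helper genes Tox2, Runx3 and Satb1 were at 362, 51.1 and 526 CPM. In cells with neither these genes nor Foxp3 they were at 35.5, 118 and 1291.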
